A study of Homo sapiens with 12 samples.

Results

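Chemokine-positive non-cycling cells made up 715 of the 2400 non-cycling cells in the library labelled RUNX1, and 715 of the 4800 cells of that library that passed the cell filter. The 2 single-cell libraries of the series together held 10398 passing cells. These 715 cells were chosen by their own counts. Passing cells had more than 2000 and fewer than 6000 genes and under 20% mitochondrial molecules, and were ordered by the summed molecules of MKI67, TOP2A, RRM2, TYMS, CENPF and CCNB1 per 10000, the proliferation score P. The 2400 cells with the lowest P were called non-cycling. Among these, a cell was taken when it held at least 2 unique molecular identifiers (UMIs, each standing for a captured RNA molecule) of the chemokine genes CCL3 and CCL4 together and none of C1orf141, LINC00967 and STON1-GTF2A1L, 3 genes that mark a separate subset of the library and are called subset genes here. Differences in CCL3, CCL4, the subset genes and the 6 genes of P are therefore set by the choice of cells and are given as description.

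The study induced the transcription factor RUNX1 in Nalm-6, an established human pre-B acute lymphoblastic leukemia line, to see which genes follow it. The library labelled RUNX1 came from a stably transduced Nalm-6 line that carried a Tet-On regulator and RUNX1 in the pLVX-Tight-Puro vector and had received 500 ng/ml doxycycline for 72 h. The control library is labelled empty vector and 72 h, its title names DMSO, and no doxycycline stands in its own labels, so vector, inducer and culture cannot be told apart from the RUNX1 label. Dead cells were depleted on beads before both libraries, and 10 ChIP-seq samples of the same cell system, at 48 h, were not analysed here.

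Each group was 1 library, so no test between cells or conditions was made. All intervals are exact 95% intervals for counting error only, and neither cells nor genes are replicates. RUNX1 transcript was lower in the library labelled RUNX1, at 30.4 CPM (the UMIs of a gene in each 1000000 human UMIs of the summed cells), than in the control, at 69.7 CPM, and cells without a UMI of 9 summed Y-linked genes were 62.4% of the former and 0.786% of the latter. The counted RUNX1 transcript thus went against the label. The induced RUNX1 came from a vector, and whether its transcripts were counted to RUNX1 was not tested. Whether libraries or lines were exchanged or mixed was not tested, so each comparison with the control is one of 2 libraries as labelled. Passing cells summed to 75350615 UMIs under the RUNX1 label and to 75754137 for the control, with medians of 14805 and 12505.5 UMIs per cell. The libraries shared 12 cell barcodes, of which 2 belonged to chemokine-positive cells. Mouse UMIs, counted on the same barcodes, had a median of 135 and a maximum of 389 per chemokine-positive cell.

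CCL3 and CCL4, also known as the macrophage inflammatory proteins MIP-1α and MIP-1β, are small secreted proteins that attract immune cells. Monocytes, T cells, natural killer cells and B cells stimulated through their antigen receptor make them, and they are not part of the usual marker set of pre-B cells. FCER1G encodes the Fc receptor gamma chain, a membrane adaptor whose cytoplasmic ITAM motif couples Fc and other receptors to SYK-family kinases. On GRCh37, the build of the counts, both chemokine genes lie on chromosome 17, CCL3 at 34415602 to 34417515 on the minus strand and CCL4 at 34431220 to 34433014 on the plus strand. FCER1G lies on chromosome 1 at 161185024 to 161190489, plus strand.

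The bases just upstream of CCL3 and FCER1G are shown because both genes were absent or nearly absent from the control and because the line was built to express RUNX1, whose proteins bind the letters TGTGGT. The RefSeq sequences, read 5′ to 3′ on GRCh38.p14, cover the 250 bases before the annotated start of the gene, chr17:36090144-36090393 on the minus strand for CCL3 and chr1:161215045-161215294 on the plus strand for FCER1G. Capitals mark the match to TGTGGT.
CCL3: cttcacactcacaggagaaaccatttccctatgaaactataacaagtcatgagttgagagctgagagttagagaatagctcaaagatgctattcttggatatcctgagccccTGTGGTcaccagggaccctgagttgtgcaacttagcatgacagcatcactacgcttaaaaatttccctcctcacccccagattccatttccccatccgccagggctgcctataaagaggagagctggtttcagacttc
FCER1G: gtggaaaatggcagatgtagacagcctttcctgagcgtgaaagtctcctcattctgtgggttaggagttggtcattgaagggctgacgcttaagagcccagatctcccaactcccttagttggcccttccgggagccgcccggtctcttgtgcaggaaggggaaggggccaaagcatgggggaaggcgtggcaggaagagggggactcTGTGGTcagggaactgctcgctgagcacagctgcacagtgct
The match began 138 bases before the start in CCL3 and 42 bases before it in FCER1G. On either strand, TGTGGT stood in the 250 bases before the start in 11% of the 35116 promoter windows of the table. The CCL3 window held 0 matches to the AP-1 letters TGANTCA, the NFAT letters GGAAAA, the ETS letters GGAAGT and the NF-kB site. The FCER1G window held 1 match to the NFAT letters and 0 to the other letters named. For CCL3 the RefSeq source held 3 windows, of which the first was read, and it held no window for CCL4. These matches are letters in a window and were not compared with binding here.

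Chemokine-positive cells held 197 CPM of CCL3 (1550 UMIs) and 242 CPM of CCL4 (1909 UMIs), against 32.2 and 26.0 CPM in the other 1685 non-cycling cells. No CCL3 or CCL4 UMI was found in the 5598 control cells, which allows a share of at most 0.0659% of cells with a UMI. The chemokine sum ran from 2 to 38 UMIs per chemokine-positive cell with a median of 4 and quartiles of 2 and 6. Of the 715 cells, 221 (30.9%) stood exactly at the limit of 2 UMIs, and 297 further non-cycling cells without subset genes stood just outside it at 1 UMI. At the upper end, 62 cells (8.67%; 6.71 to 11.0) held 10 or more. The chosen cells were 29.8% (28.0 to 31.7) of non-cycling cells and held 59.1% of the 5854 chemokine UMIs in the passing cells of the library.

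**Figure D1:**
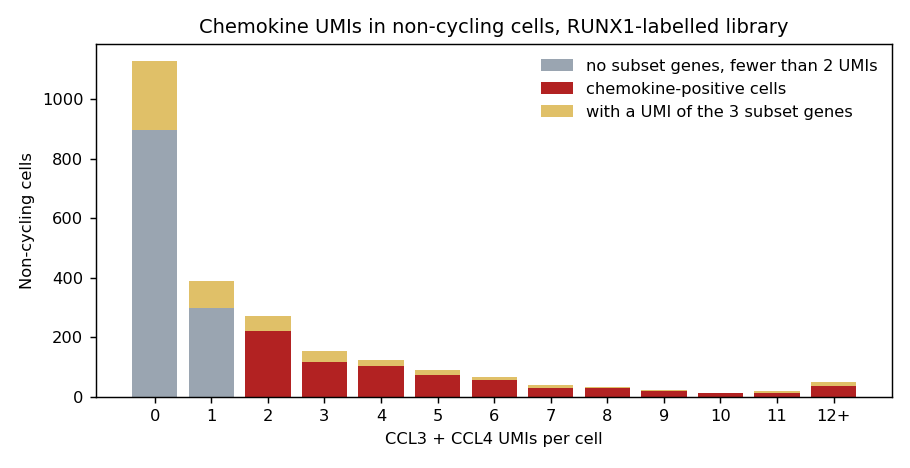
Number of non-cycling cells (vertical axis) of the library labelled RUNX1 by their summed CCL3 and CCL4 UMIs (horizontal axis), with bars split into cells without subset genes under 2 UMIs (grey), the 715 chemokine-positive cells (red) and cells with a subset-gene UMI (yellow). The counts fall from 221 chosen cells at 2 UMIs without a gap, so the limit of 2 cuts a continuous range.

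Both transcripts were found in the same cell in 495 chemokine-positive cells (69.2%; 65.7 to 72.6), CCL3 alone in 91 (12.7%) and CCL4 alone in 129 (18.0%). Over the 715 cells, which share a library and a rule on the sum of the pair, UMIs of CCL3 and CCL4 had a Pearson r of 0.15 and a Spearman rho of -0.076, and per 10000 UMIs 0.24 and 0.015. CCL3 made up 44.8% (43.1 to 46.5) of the chemokine UMIs of these cells. Its share was 58.0% (54.6 to 61.4) in the 167 subset-gene cells with at least 2 chemokine UMIs and 52.7% (49.4 to 56.0) in the 213 cycling cells with at least 2 and no subset genes. The near-identical copies CCL3L1, CCL3L3, CCL4L1 and CCL4L2 had 5, 9, 0 and 6 UMIs in chemokine-positive cells, and reads shared between copies leave these counts, and those of CCL3 and CCL4, uncertain.

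The chemokine counts of a cell also held in UMIs that did not choose it. When every UMI of the 1909 non-cycling cells without subset genes was put at random into set A or set B, the 445 cells with at least 2 chemokine UMIs in set A had 464 CPM (437 to 491) of CCL3 and CCL4 in set B, and 79.6% of them had a UMI there. The 338 cells with 1 chemokine UMI in set A had 196 CPM (176 to 217) in set B, and the 1126 cells with 0 had 47.1 CPM (42.3 to 52.4). Another random split gave 476 CPM for cells chosen in set A. Both sets come from the same droplet.

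In a grouping of the non-cycling cells made without the 11 genes of the rule, the chosen cells were spread unevenly. Of 7 clusters, cluster 0 (618 cells, led by CD28, UPB1 and KSR1) held 359 of them, 50.2% of all, and they were 58.1% (54.1 to 62.0) of its cells. Their share was 55.6% in cluster 6 (126 cells, led by PTH2 and MB), 36.9% in cluster 3 (388 cells, led by NAPSB and TLR10) and between 10.0% and 13.4% in clusters 1, 2 and 4. Cluster 5 (156 cells, led by CPNE2, with RAG1 and MYB among its leading genes) held 0 of them, and 1.92% of its cells had a chemokine UMI at a median depth of 17512.5 UMIs. Cluster 0 reached 78.5% of cells with a chemokine UMI at a median of 9814 UMIs. Of the 20 nearest neighbours of a chemokine-positive cell, 51.0% on average were chemokine-positive too. This was 40.2% for cells at 1 chemokine UMI, 33.2% for chemokine-free FCER1G-positive cells, 13.5% for subset-gene cells, 8.07% for chemokine-free cells without FCER1G and 30.8% over all non-cycling cells.

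**Figure D2:**
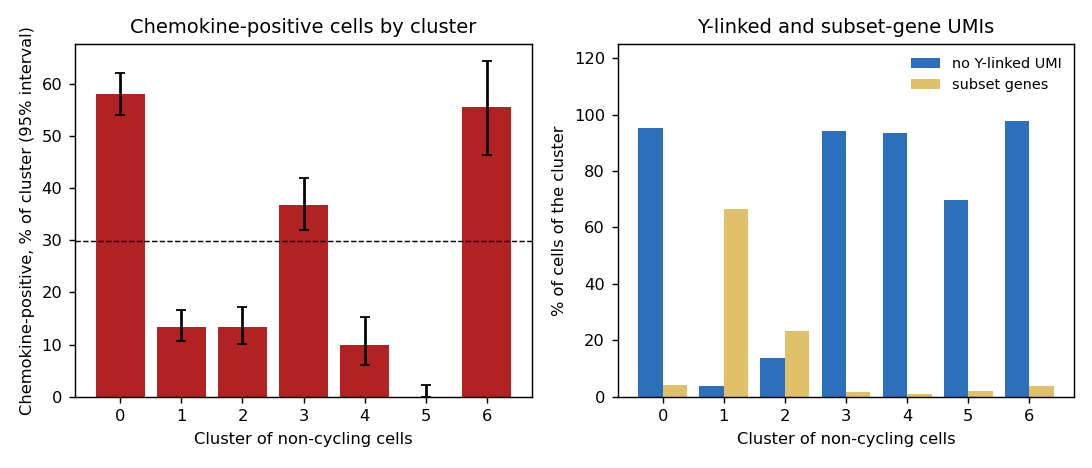
Left, chemokine-positive cells as a percentage of each of the 7 clusters of non-cycling cells (bars, with exact 95% intervals), the dashed line marking their 29.8% share of all non-cycling cells. Right, percentage of the cells of each cluster without a Y-linked UMI (blue) and with a subset-gene UMI (yellow); clusters 0 and 6 stand highest on the left, while clusters 1 and 2 combine few cells without Y-linked UMIs with the most subset-gene cells.

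The label of the cells as CCL3- or CCL4-expressing pre-B cells was checked against marker lists. All 12 B precursor markers in the annotation were at 10 CPM or more, and their summed level was 7725 CPM in chemokine-positive cells, 6588 CPM in the other non-cycling cells and 6117 CPM in the control. The surrogate light chain VPREB1 gave most of that difference, at 3556 against 2744 CPM, and the median log2 ratio of the list was 0.08. DNTT, PAX5, VPREB3, MME and CD9 were lower than in the other non-cycling cells, with log2 ratios from -1.39 to -0.24. Of 15 T cell markers, TRAC (19.5 CPM) and LCK (71.4 CPM) reached 10 CPM and 9 were at 0, CD3D, CD3G, CD4 and CD8A among them. Of 18 natural killer cell markers, NKG7 (27.4 CPM), GZMA (60.5 CPM), FGFBP2 (45.3 CPM) and FCER1G reached 10 CPM and 6 were at 0, GZMB, NCAM1 and FCGR3A among them, while the summed level of the list was 651 CPM against 353 CPM in the other non-cycling cells and 14.5 CPM in the control. FCER1G alone gave 506 of those 651 CPM. Of 18 monocyte and macrophage markers, CST3 (68.1 CPM) and FCER1G reached 10 CPM and 9 were at 0, S100A8, S100A9, FCN1 and MPO among them, and the summed level was 583 CPM against 284 and, in the control, 13.2 CPM. Of 12 dendritic cell markers PLD4 and IRF7 reached 10 CPM (summed 155 CPM against 136 and, in the control, 65.5), of 9 mast cell and basophil markers FCER1G (513 against 225 and 2.27 CPM), of 10 plasma cell markers XBP1, IGJ, MZB1, IRF4 and IGHA1 (941 against 846 and 771 CPM), and of 12 erythroid and megakaryocyte markers 0 (5.07 against 4.87 and 1.39 CPM). Summed over the cells, all measured B precursor markers thus reached 10 CPM. Each of the T cell, natural killer cell and monocyte lists had members at 10 CPM or more beside those at 0. A single cell need not hold every marker, and DNTT was found in 16.2% of chemokine-positive cells.

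FCER1G was found together with the chemokines in most of the chosen cells. It was detected in 654 of the 715 chemokine-positive cells (91.5%; 89.2 to 93.4), at 506 CPM against 220 CPM in the other non-cycling cells and 0.0924 CPM (7 UMIs) in the control, a log2 ratio to the other non-cycling cells of 1.20 (1.14 to 1.26). The 459 chemokine-free cells chosen for having FCER1G stood lower, at 366 CPM. Over the 715 cells FCER1G and chemokine UMIs per 10000 had a Pearson r of 0.22 and a Spearman rho of 0.34. After thinning every cell to 8000 UMIs, which kept 550 chemokine-positive and 1342 other non-cycling cells and left out 165 and 343, FCER1G was found in 85.3% and 48.8% of cells. Without thinning the shares were 91.5% and 60.5%.

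Away from the genes of the rule, chemokine-positive cells differed from the other non-cycling cells at few of the 7870 genes measured at 10 CPM or more in either sum. Past 2-fold stood 51 genes (0.648%) with a higher and 64 (0.813%) with a lower level, around a median over all genes of 0.0031 on the log2 scale. Counts past 2-fold fell to 19 higher (0.243% of 7824 genes) and 12 lower (0.153%) when the comparison was with chemokine-free FCER1G-positive cells. They were 364 (4.61%) and 173 (2.19%) of 7902 genes against the 438 chemokine-free cells without FCER1G, and 154 (1.88%) and 276 (3.38%) of 8172 genes against the 491 cells with subset genes. Chemokine-positive cells were thus nearest to the FCER1G-positive cells by this count. Depth and RNA content moved with the groups: the median cell had 10275 UMIs among chemokine-positive cells (4200 to 33164), 11758 among the other non-cycling cells, 11381 among FCER1G-positive cells, 15414.5 among cells without FCER1G and 9735 among subset-gene cells. The median mitochondrial share was 12.3% against 13.9% in the other non-cycling cells, and the ribosomal protein share 34.5% against 32.9%. Cells with a P of 0 were 84.1% of chemokine-positive cells and 77.2% of the other non-cycling cells. They were 79.3% of FCER1G-positive cells, 60.5% of cells without FCER1G and 88.8% of subset-gene cells. The part of depth, RNA content and P in the differences was not tested.

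The 20 genes with the highest ratios included surface receptors of lymphocytes. CD28, a costimulatory receptor best known from T cells, was at 46.1 CPM against 15.9 CPM (log2 ratio 1.54; 1.32 to 1.76) and had 0 UMIs in the control. CCR7, the receptor that guides lymphocytes into lymph nodes, was at 10.1 against 2.87 CPM (1.82; 1.32 to 2.33), and ITGB7, the integrin beta chain of gut-homing lymphocytes, at 160 against 60.0 CPM (1.42; 1.30 to 1.53). TNFRSF13B, the receptor TACI for the B cell survival factors BAFF and APRIL, was at 102 against 39.7 CPM (1.37; 1.22 to 1.51). These 4 receptors were each under 1 CPM in the control. CD180, a Toll-like receptor homologue of B cells, was at 16.9 against 5.68 CPM (1.57), and GPR82, a receptor without a known ligand, at 24.0 against 8.65 CPM (1.47).

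Growth factor and signalling genes were the next group. ERBB2, the receptor tyrosine kinase HER2, had the highest ratio, 10.4 against 2.58 CPM (log2 ratio 2.01; 1.50 to 2.54), on 82 UMIs in chemokine-positive cells. It was found in 9.65% of these cells, and with a mitochondrial limit of 10% its log2 ratio was 0.75. PDGFA, a ligand of the platelet-derived growth factor receptors, was at 47.7 against 15.4 CPM (1.63; 1.41 to 1.85), and KSR1, a scaffold of the RAF-MEK-ERK cascade, at 17.5 against 5.30 CPM (1.72; 1.35 to 2.10). TGFB1I1, a focal adhesion adaptor, was at 29.4 against 11.4 CPM, and TCF7, a transcription factor of WNT signalling in lymphocytes, at 25.0 against 9.46 CPM. Against FCER1G-positive cells alone, ERBB2 (1.48), TCF7 (1.26), KSR1 (1.20) and TGFB1I1 (1.04) kept a log2 ratio of 1 or more, while PDGFA had 0.85.

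Enzymes and secreted proteins completed the named genes with a known product. UPB1, which carries out the last step of pyrimidine breakdown, was at 37.0 against 9.46 CPM (log2 ratio 1.97; 1.70 to 2.24). IL4I1, a secreted L-amino acid oxidase, was at 245 against 95.2 CPM (1.36; 1.27 to 1.45) and at 0.0924 CPM in the control. SPINK2, a serine protease inhibitor, was at 30.4 against 10.4 CPM (1.55), and FGFBP2, a secreted protein of cytotoxic lymphocytes, at 45.3 against 16.3 CPM (1.48). GNPDA1, an amino sugar deaminase, was at 14.3 against 4.97 CPM, and TMEM114, a membrane protein, at 90.7 against 33.1 CPM. The remaining 3 of the 20 were noncoding: RP11-305L7.1 (1.82), RP11-404F10.2 (1.56) and the pseudogene SETP9 (1.70). RP11-404F10.2 and SETP9 overlap on the plus strand of chromosome 1, so that reads could be split between them.

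All 20 genes were higher in chemokine-positive cells than in each of the 3 other sets of cells, chemokine-free FCER1G-positive, chemokine-free without FCER1G and with subset genes, and all 20 had a lower limit above 0 against the FCER1G-positive cells. They were selected as the highest of the ranking, in which those 3 sets were most of the comparison cells, so the count is a description. Genes such as ERBB2, CCR7, KSR1, CD180 and GNPDA1 reached the floor of 10 CPM in the chemokine-positive cells alone. Their high rank is therefore partly set by that floor. Among the lowest genes, MYB and RAG2 reached it in the other non-cycling cells alone. Against FCER1G-positive cells 11 of the 20 stayed past 2-fold, led by RP11-404F10.2 (1.89), ERBB2 (1.48) and CD28 (1.26). All 20 were under 10 CPM in the control and 14 were under 1 CPM. Promoter windows were in the RefSeq table for 16 of the 20, and TGTGGT stood in those of CD28 and FGFBP2, beside 11% of all windows.

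Among the 10 lowest genes were MYB, IL7R and RAG2, which are active in B cell precursors. MYB, a transcription factor of blood progenitors, was at 3.55 CPM against 23.9 CPM in the other non-cycling cells (log2 ratio -2.75; -3.36 to -2.20), 81.5 CPM in cycling cells and 172 CPM in the control. IL7R, the interleukin 7 receptor of pro-B cells, was at 17.1 against 74.3 CPM (-2.12; -2.38 to -1.86) and 253 CPM in the control. RAG2, a subunit of the V(D)J recombinase, was at 3.68 against 15.8 CPM (-2.10; -2.70 to -1.55). Among the groups compared, these 3 genes were highest in the control and lowest in chemokine-positive cells, where the levels of MYB and RAG2 rest on 28 and 29 UMIs.

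The metallothioneins MT1X and MT1H, small metal-binding proteins, followed the same order. MT1X was at 162 CPM against 759 CPM (log2 ratio -2.23; -2.31 to -2.15) and 3362 CPM in the control, and MT1H at 32.2 against 180 CPM (-2.48) and 1273 CPM in the control. They belong to a family of similar genes, between which reads can be split. GBP4, an interferon-inducible GTPase, was at 5.58 against 24.8 CPM (-2.15), and RP11-1055B8.7 at 3.30 against 14.1 CPM (-2.09).

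The other 3 lowest genes were highest in the subset-gene cells. CD96, an immunoglobulin-family receptor of T and natural killer cells, was at 9.39 CPM against 183 CPM in subset-gene cells, 60.9 CPM in cells without FCER1G and 14.0 CPM in FCER1G-positive cells. IL18RAP, a subunit of the interleukin 18 receptor, was at 4.69 against 66.7 CPM in subset-gene cells and 2.76 CPM in cells without FCER1G, and its ratio against the other non-cycling cells turned from -2.11 to 0.09 once subset-gene cells were left out of them. NAALADL2, a membrane peptidase homologue, was at 3.93 against 48.1 CPM in subset-gene cells. With subset-gene cells left out of the comparison, CD96 kept a log2 ratio of -1.95 and NAALADL2 one of -1.64. Of the 9 lowest genes with a promoter window, IL18RAP, IL7R and CD96 had the letters TGTGGT, which stood in 11% of all windows. With so few genes the difference was not tested.

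The same genes were then read along the chemokine count. Non-cycling cells without subset genes were binned at 0, 1, 2 to 3, 4 to 9 and 10 or more chemokine UMIs, which gave 897, 297, 339, 314 and 62 cells with median depths of 13441, 10972, 10322, 10228 and 9847.5 UMIs. FCER1G was at 160, 400, 459, 535 and 617 CPM in these bins. ITGB7 was at 47.0 CPM in the bin at 0, 96.0 CPM at 1 UMI and 170 and 220 CPM in the last pair of bins, and CD28 at 10.5, 33.1, 37.4, 53.2 and 58.1 CPM over the 5 bins. Of the 20 highest genes, 17 were higher at every further bin and all 20 were higher in the last bin than in the bin at 0. The 20 genes were picked from these cells by the same count, so that a last bin above the bin at 0 is largely set by the choice and is given as description. Cells at 1 UMI thus lay between the chemokine-free cells and the chosen ones, nearer to the latter for FCER1G.

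Some genes outside the ranking, chosen after their values were seen, ran with the chemokine count as well. FOS, an AP-1 subunit induced within minutes of stimulation, was at 26.6 CPM in the bin at 0 and 145 CPM (117 to 176) at 10 or more. CD79A, a chain of the B cell receptor, went from 375 to 837 CPM and KDR, the VEGF receptor 2, from 34.6 to 139 CPM. MS4A1, which encodes CD20, went from 17.5 to 55.1 CPM, and SPRY1, a feedback inhibitor of ERK signalling, from 33.7 to 134 CPM. Some other immediate early and ERK feedback genes went the other way, MYC from 436 to 168 CPM and DUSP1 from 168 to 71.5 CPM.

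Most of the fall of the lower genes lay between the bin at 0 and 1 UMI, but the bin at 0 mixed unlike cells. MYB was at 33.7 CPM in the bin at 0 and 10.4, 4.78, 2.32 and 2.98 CPM in the following bins, and IL7R at 96.5 and then 18.8, 16.4, 19.8 and 7.45 CPM. MT1X was at 1105 CPM in the bin at 0, 235 CPM at 1 UMI and 112 CPM at 10 or more. The bin at 0 pooled 459 FCER1G-positive cells and 438 cells without FCER1G. MYB was at 11.7 CPM in the former and 50.9 CPM in the latter, IL7R at 37.8 and 142 CPM and MT1X at 363 and 1684 CPM. From the FCER1G-positive cells alone, the step to 1 UMI was thus smaller for these genes. DNTT, the terminal transferase of V(D)J joining, went from 104 to 39.6 and then to 13.4 CPM, and TCL1A, a coactivator of AKT, from 1246 to 698 and then to 392 CPM. Of the 10 lowest genes, 2 were lower at every further bin, and 9 were lower in the last bin than in the bin at 0, all but IL18RAP. RUNX1 itself was at 29.7, 27.1, 23.6, 27.9 and 16.4 CPM, with an interval of 8.18 to 29.3 in the last bin that reached the values of the middle bins. Against the other non-cycling cells its log2 ratio was -0.23 (-0.47 to 0.00), 24.9 against 29.2 CPM. Whether transcripts of the vector are part of these counts was not tested.

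**Figure D3:**
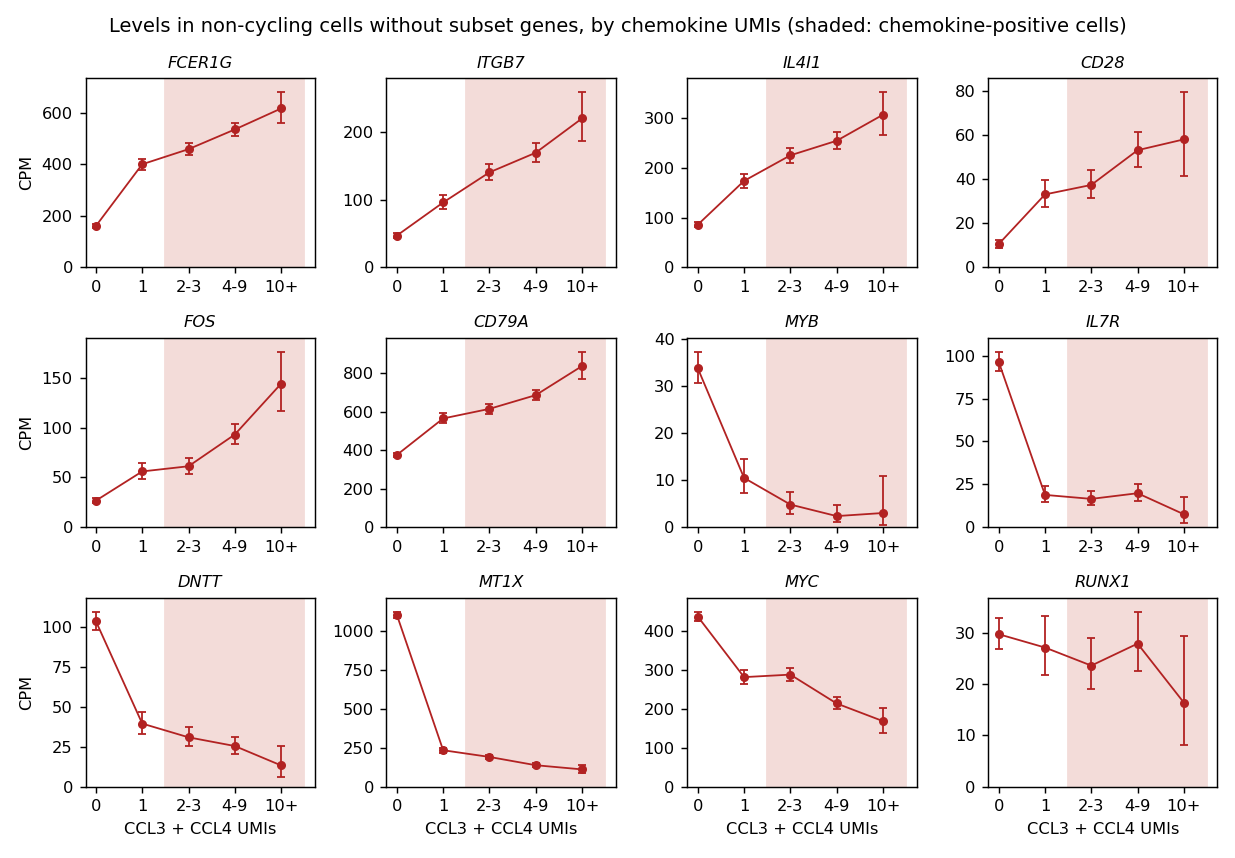
Level in CPM (vertical axes, from 0, with exact 95% intervals) of 12 genes in non-cycling cells without subset genes, by summed CCL3 and CCL4 UMIs (horizontal axes); shading marks the bins of chemokine-positive cells. FCER1G climbs from 160 to 617 CPM while MYB drops from 33.7 to 2.98 CPM, most of it between 0 and 1 UMI, and RUNX1 stays between 16.4 and 29.7 CPM. The bin at 0 pools chemokine-free cells with and without FCER1G.

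The share of cells with a UMI gave the same order at equal depth. At 8000 UMIs per cell ITGB7 was found in 62.7% of chemokine-positive and 32.0% of the other non-cycling cells, IL4I1 in 71.5% and 39.4% and CD28 in 30.7% and 11.7%. Without thinning these shares were 72.3% and 42.7% for ITGB7, 75.1% and 44.1% for IL4I1 and 34.8% and 13.6% for CD28. MYB was found in 2.18% and 12.5% at equal depth (3.50% and 16.0% without thinning), and IL7R in 8.55% and 20.9% (11.9% and 26.2%). CD28 was thus found in a minority of chemokine-positive cells and FCER1G in most of them.

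Several genes of the B cell surface and of MHC class II antigen presentation were higher in chemokine-positive cells. For lists, a gene was called higher from 0.5 upward on the log2 scale and lower from -0.5 downward, which took in 3.7% and 3.49% of all 7870 genes. Of 19 measured genes of B cell surface and costimulation, 8 were higher and 1 lower (median log2 ratio 0.22), led by CD28 upward, with IL4I1, TNFRSF13B and SLAMF1, a self-ligand receptor of lymphocytes (42.5 against 19.6 CPM, 1.12), and IL7R downward. For MHC class II and antigen presentation, 4 of 15 measured genes were higher and 0 lower (median 0.38): CTSZ, a lysosomal carboxypeptidase (70.2 against 34.4 CPM, 1.03), HLA-DQA1 (43.6 against 25.4 CPM, 0.78), HLA-DMB (0.59) and HLA-DQB1 (0.51). HLA genes are near-identical copies in part, so these counts are uncertain. The list median was 0.22 against FCER1G-positive cells.

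Receptor signalling lists were mixed. Of 31 measured genes of pre-B and B cell receptor signalling, 6 were higher and 3 lower (median 0.20). DAPP1, a PI3-kinase adaptor (10.4 against 5.30 CPM, 0.97), PRKCB, the protein kinase C of B cells (14.0 against 7.16 CPM, 0.96), and CSK, an inhibitor of SRC-family kinases (0.74), led upward, and ZAP70, a SYK relative (4.31 against 10.1 CPM, -1.22), downward. Of 6 measured ITAM adaptors and Fc receptors, FCER1G and CD79A (665 against 443 CPM, 0.58) were higher and FCRLA, an intracellular Fc receptor-like protein (-1.16), was lower (median 0.45, and 0.14 against FCER1G-positive cells). Of 6 light and heavy chain constant genes, IGHA1 (18.0 against 9.08 CPM, 0.99) was higher and 0 lower (median 0.14).

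Genes that respond to ERK and other acute signals also went both ways. Of 8 measured ERK feedback genes, 3 were higher and 1 lower (median 0.24): the phosphatase DUSP5 (18.4 against 8.17 CPM, 1.17), SPRY1 (95.3 against 50.3 CPM, 0.92) and SPRY2 (0.59) upward and DUSP1 (87.3 against 149 CPM, -0.77) downward. The 18 measured immediate early genes held 3 higher and 3 lower genes (median 0.12), with the RNA-decay factor ZFP36 (0.75), BTG2 (0.67) and FOS (0.61) upward and EGR1 (-0.70), FOSB (-0.65) and MYC (-0.62) downward. Of 16 NF-kB subunits and feedback targets, GADD45B (79.2 against 48.1 CPM, 0.72) and CFLAR (0.56), an inhibitor of caspase 8, were higher and 0 lower (median 0.04). NFKBIA, an inhibitor that NF-kB itself induces, was at 55.9 against 51.3 CPM (0.12; -0.04 to 0.29) and TNFAIP3, another feedback inhibitor, at 18.0 against 17.3 CPM (0.06; -0.23 to 0.34). Of 14 NFAT and calcium genes, PPP3CC (0.67) was higher and ITPR1 (-0.57) lower (median -0.03).

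Chemokines other than CCL3 and CCL4 were hardly measured. None of the 4 copies of CCL3 and CCL4 reached 10 CPM. Of 27 other chemokine and cytokine genes in the annotation, 4 reached 10 CPM, of which MIF was lower (127 against 195 CPM, -0.61), and TGFB1, TNFSF9 and IL16 stood between -0.26 and -0.08. Of 11 chemokine and migration receptors, CCR7, ITGB7 and ICAM2, an adhesion ligand (155 against 93.8 CPM, 0.72), were higher and 2 lower, ICAM3 (-0.75) among them (median -0.22, and 0.11 against FCER1G-positive cells). The interferon response list had 4 of 17 genes higher and 1 lower (median 0.23, and 0.05 against FCER1G-positive cells), led by IRF7, a transcription factor of the interferon response (100 against 42.9 CPM, 1.22), MX1 (24.4 against 11.9 CPM, 1.03), BST2 (0.71) and SAMHD1 (0.69).

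The lists of V(D)J recombination and of MYC targets had medians under 0, while B lineage factors went both ways. That no gene stood higher in either of the former lists is near the share of 3.7% over all genes and also held for other lists. Among 11 genes of V(D)J recombination 0 stood higher and 3 lower (median -0.19): RAG2, DNTT (27.1 against 71.1 CPM, -1.39) and the ligase LIG4 (-0.66). Among 31 transcription factors of the B lineage, 3 stood higher and 5 lower (median -0.08, and -0.0045 against FCER1G-positive cells), with AFF3 (348 against 210 CPM, 0.73) and the ETS factor SPIB (281 against 189 CPM, 0.57) upward, and MYB, BACH2 (18.5 against 42.6 CPM, -1.20) and PAX5 (66.9 against 112 CPM, -0.75) downward. Of 27 MYC targets and ribosome assembly genes, 0 were higher and 2 lower, MYC itself (245 against 377 CPM) and NME1 (-0.57), and the list median of -0.34 was the lowest of the lists. All 27 had a log2 ratio under 0, the highest at -0.02. Of the genes named from the lists, SLAMF1, SPIB, FOS, NFKBIA and TNFAIP3 were added after their values were seen.

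The remaining lists had few members past 0.5. Of 20 S phase genes 0 were higher and 1 lower, UHRF1 (-1.65), with a median of -0.06, and of 17 G2/M genes 0 and 0 (median -0.04), both limited by the rule on P. Of 11 CDK inhibitors and G1 cyclins 0 were higher and 2 lower (median 0.11), CDKN1A (41.9 against 86.9 CPM, -1.05), the inhibitor p21, and CDK4 (-0.52). Of 20 p53 targets 2 were higher, BTG2 and SESN1, and 1 lower, CDKN1A (median -0.01). Of 18 FOXO targets and quiescence genes 1 was higher, SESN1 (0.51), and 1 lower, IL7R (median 0.04), and IL7R was also the 1 lower gene of 11 glucocorticoid receptor targets, with 0 higher (median 0.09). Among 13 cytoskeleton, S100 and annexin genes, S100A4 (-1.08) and VIM (-0.57) were lower and 0 higher (median 0.07). A single lower gene and 0 higher genes were found among 11 lipid antigen and lysosome genes (LGMN, -1.54; median 0.11), 22 glycolysis and hypoxia genes (PDK1, -0.71; median -0.13) and 23 sterol and fatty acid synthesis genes (HMGCS1, -0.65; median -0.16). Of 17 integrated stress response genes, SLC7A5 (0.52) was higher and 0 lower (median 0.01). None passed in either direction among 9 MHC class I (median -0.06), 11 BCL2 family (0.03), 35 respiratory chain (-0.12), 14 heat shock (-0.13) and 11 RUNX partner and corepressor genes (-0.10).

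Y-linked UMIs separated the chosen cells into unlike groups. Of the 715 chemokine-positive cells, 575 (80.4%; 77.3 to 83.3) had no UMI of 9 summed Y-linked genes, 22 had 1 or 2 and 118 had 3 or more. Cells without a Y-linked UMI were 50.8% of the other non-cycling cells, 75.4% of FCER1G-positive cells, 53.2% of cells without FCER1G, 10.8% of subset-gene cells and 0.786% of control cells. Median depths were close, at 10232 UMIs without and 10639 UMIs with 3 or more, while the median mitochondrial shares were 11.9% and 15.1%.

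Chemokine-positive cells without Y-linked UMIs differed from those with 3 or more at 143 of 8213 genes upward (1.74%) and 291 downward (3.54%) past 2-fold. These genes were named after their values were seen. UPB1 was at 43.4 CPM without and 8.59 CPM with Y-linked UMIs (log2 ratio 2.34; 1.51 to 3.31), SPINK2 at 35.4 and 8.59 CPM, PDGFA at 55.6 and 13.6 CPM and CD28 at 53.2 and 15.8 CPM (1.76; 1.13 to 2.45). IGLC7, an immunoglobulin lambda constant gene of a family with near-identical members, was at 5230 and 1626 CPM. FCER1G was at 553 and 279 CPM (0.99; 0.84 to 1.14). CD96, at 2.08 and 43.0 CPM (-4.37), IL18RAP, at 0.481 and 24.3 CPM (-5.66), and CDKN1C, the inhibitor p57, at 4.97 and 34.4 CPM (-2.79), went the other way. The chemokine genes themselves were at 190 and 228 CPM for CCL3 and at 251 and 197 CPM for CCL4, so that CCL3 made up 43.1% (41.2 to 45.0) of chemokine UMIs without Y-linked UMIs and 53.7% (49.6 to 57.8) with them. CD79A (658 and 710 CPM) and FOS (80.1 and 94.5 CPM) had log2 ratios of -0.11 and -0.24.

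**Figure D4:**
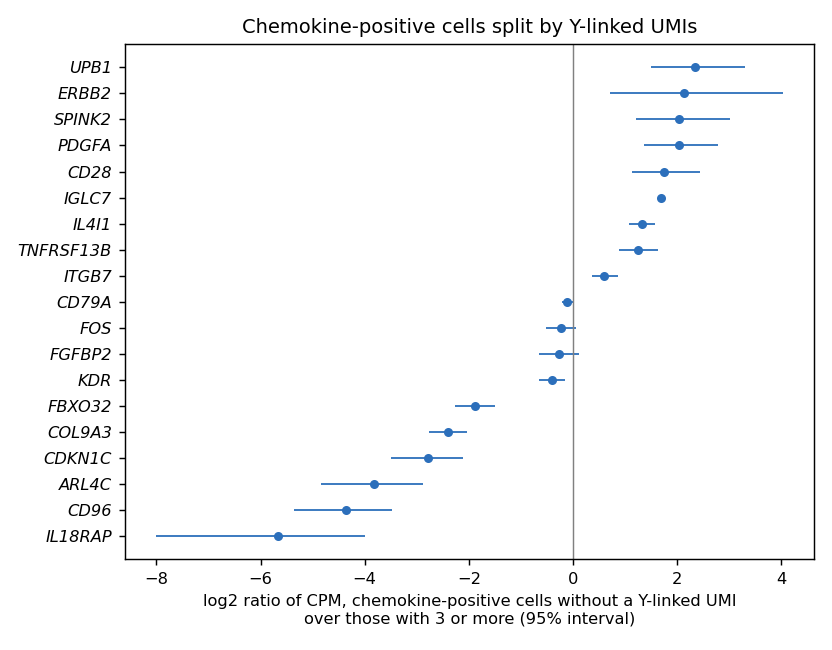
Log2 ratio of CPM (horizontal axis, with exact 95% intervals) of 19 genes in chemokine-positive cells without a Y-linked UMI over those with 3 or more. Genes from UPB1 at 2.34 to IL18RAP at -5.66 spread on both sides of 0, with CD79A and FOS near 0.

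The contrast with other non-cycling cells was also read within each Y-linked group, where all 20 highest and all 10 lowest genes had a ratio in the same direction as before. These genes were picked from the same cells, and 575 of the 715 chemokine-positive cells had no Y-linked UMI. The shared direction is therefore largely set by the choice, most of all in that group, and is given as description. Among cells without a Y-linked UMI, 40.2% were chemokine-positive, and of 7737 measured genes 52 lay past 2-fold upward and 45 downward. There 19 of the 20 highest and 9 of the 10 lowest genes kept a 2-fold difference. Of these 10 lowest genes, 7 reached 10 CPM in either sum, and all 7 kept it. Among cells with 3 or more, 13.1% were chemokine-positive, and of 8244 measured genes 71 were higher and 66 lower. A 2-fold difference was kept by 17 of the 20 and 6 of the 10. Only 13 of the 20 reached 10 CPM in either sum there, of which 10 kept it. ITGB7 had a log2 ratio of 1.25 without and 1.19 with Y-linked UMIs, IL7R -2.43 and -1.26, MYB -3.16 and -1.69 and CD28 1.31 and 0.67. For FCER1G, at 1.20 over all cells, the ratios were 1.06 and 0.69. A mitochondrial limit of 10% in place of 20% left 299 non-cycling cells, 142 of them chemokine-positive. Of 8414 measured genes 104 were then higher and 265 lower, with 5 of the 20 and 8 of the 10 named genes past 2-fold. Among those cells the log2 ratio was 0.80 for ITGB7, 0.56 for FCER1G, 0.54 for CD28, -3.11 for IL7R and -0.47 for MYB.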

How the data were processed

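Single-cell RNA-seq was made from 2 Nalm-6 libraries, 1 per group as given by the genotype labels, and polyA RNA was captured in droplets with UMIs. The deposited values are raw counts of UMIs per gene and cell, which the authors made with Cell Ranger 3.0.2 on hg19 and mm10, per the labels, without normalization. A deposited barcode table gives the counts of human and mouse UMIs.

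The rule for the cells is given in the text. Cells, gene lists and named genes were chosen with earlier results of these data known. Each set of cells was summed and scaled to its human UMIs (CPM). Ratios had no pseudocount and covered genes that reached 10 CPM in either sum, without the 11 genes of the rule. Genes under 4 UMIs entered the ranking with 3 UMIs as floor (0.381 CPM in chemokine-positive cells). Named genes were the 20 highest and 10 lowest ratios, RUNX1 and, from each of 32 lists, at most 4 genes by size of ratio, beside 9 marker lists; others are said to be chosen after their values were seen. CPM values have exact Poisson, shares exact Clopper-Pearson and ratios exact conditional binomial intervals at 95%. Doublets were not called. Clusters used log counts scaled to 10000, 2000 variable genes, 10 components and 20 neighbours, with Leiden clustering at resolution 0.5 (scanpy 1.11.5, leidenalg 0.10.2). Gene positions are from GENCODE v44lift37 (55538 of 57905 identifiers matched), promoters from RefSeq. Ratios were tested on simulated counts. Alternatives changed the chemokine limit, the limit on P, the cell filter, depth, scaling, gene floor and comparison cells, and 3 of them, on subset genes in the comparison cells and on Y-linked UMIs, were chosen after seeing the data. Scripts ran in Python 3.11.15 with pandas 2.3.3, scipy 1.17.1 and numpy 2.4.6.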

Additional observations from a re-analysis of the deposited data

Results flagged for a closer look

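Chemokine UMIs also appeared in cells and barcodes that the rule leaves out. Of the 2400 cycling cells of the library labelled RUNX1, 16.9% (405 cells; 15.4 to 18.4) held a CCL3 or CCL4 UMI, at a median depth of 19051.5 UMIs, against 0 of 5598 passing control cells. Of the 691 barcodes of that library that the cell filter left out, 33.4% (231 barcodes; 29.9 to 37.1) held a chemokine UMI, against 0 of 475 left-out barcodes of the control, which allows a share of at most 0.774%. Both were picked out because the signal lies in cells that the comparisons do not use and stands above the control. Non-cycling cells stood higher than the cycling cells, at 52.9% with a UMI and a median depth of 11247 UMIs.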

How the results depend on the processing

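The share of non-cycling cells that were chemokine-positive, 29.8%, became 42.2% at a limit of 1 chemokine UMI, 20.6% at 3 and 11.3% at 5. It was 36.8% with subset-gene cells kept, 47.5% with a mitochondrial limit of 10%, 21.7% after thinning to 8000 UMIs, 40.2% in cells without a Y-linked UMI and 13.1% in cells with 3 or more. The 51 higher of 7870 measured genes became 104 of 8414 with the mitochondrial limit of 10% and 16 of 2462 at a gene floor of 50 CPM. They became 100 of 7857 against chemokine-free non-cycling cells and 19 of 7824 against FCER1G-positive ones. The 64 lower of 7870 genes became 36 of 7884 with subset-gene cells kept and 265 of 8414 with the mitochondrial limit of 10%. With totals without mitochondrial and ribosomal protein genes they became 110 of 9523. They were 116 of 9735 and 15 of 2462 at gene floors of 5 and 50 CPM, and 12 of 7824 against FCER1G-positive cells. More genes were measured under the lower floor and the changed totals, and fewer under the floor of 50 CPM. Fewer cells were left under the mitochondrial limit (299), and other causes were not tested. The highest share of a cluster that was chemokine-positive was 62.8% at a Leiden resolution of 1.0, against 58.1%. The log2 ratio of IL18RAP turned to 0.48 with subset-gene cells kept and to 0.086 against other non-cycling cells without subset genes. Of 511 further values of 32 named genes, 317 moved by less than their counting interval, 192 by more and 2 turned. Of 496 further medians of 31 gene lists, 107 moved by over 0.1 and 67, in 19 lists, took the opposite sign. The medians of those 19 lists lay between -0.22 and 0.14; that of chemokine and migration receptors, -0.22, reached 0.19. No paired analysis was possible because each group was 1 library and no test was made.

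Depth limits what low genes show: 3 UMIs are 0.381 CPM in chemokine-positive cells and 0.0396 CPM in the control. Each condition was 1 library, so the values describe these cells and not other cultures.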

Other observations

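Cycling cells with at least 2 chemokine UMIs and without subset genes (213 cells, median P of 4.05 against 7.74 over all cycling cells) carried many of the same genes. Their FCER1G level was 231 CPM against 39.3 CPM over all 2400 cycling cells, IL4I1 stood at 91.2 against 16.6 CPM, ITGB7 at 79.8 against 17.2 CPM and CD28 at 17.4 against 2.47 CPM. Their MYB level was 28.3 against 81.5 CPM, IL7R 63.5 against 180 CPM and MT1X 475 against 1660 CPM. In summed UMIs TOP2A, a proliferation gene of the rule, stood at 279 and 224 CPM, while the median P per cell was lower in these cells. The median depth of these cells was 15389 UMIs.

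Of the 491 non-cycling cells with subset genes, 167 (34.0%; 29.8 to 38.4) held at least 2 chemokine UMIs, against 37.5% (35.3 to 39.7) of non-cycling cells without them. These 167 cells had CD96 at 135 CPM, IL18RAP at 87.7 CPM and LGMN at 65.9 CPM, where chemokine-positive cells without subset genes had 9.39, 4.69 and 4.82 CPM. FOS stood at 161 CPM against 82.3 CPM and KDR at 155 against 103 CPM. FCER1G stood at 312 against 506 CPM and UPB1 at 6.30 against 37.0 CPM. Of the 167 cells, 12.6% had no Y-linked UMI, against 80.4%.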
